A study of Zea mays with 3 samples.

Results

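Urease is represented on the NimbleGen maize array by 4 transcript isoforms of the gene GRMZM2G461569, named T01, T02, T03 and T04, which are measured by 8 probes. The isoforms were chosen by identifier alone, as all array transcripts carrying this gene name, out of 59756 transcripts of 39219 genes and 139000 probes. The reference gene table lists the name as a synonym of LOC100277946, with 5 RefSeq transcripts, and the sources used here do not pair these with the isoforms of the array. According to the study, T01 is the complete transcript and T03 is a short form that covers only part of the coding sequence. The sources used here do not describe T02 and T04.

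The RNA came from whole roots of maize cv. PR33T56, called a hybrid by the labels and an inbred line in the methods. All 3 samples belong to a single group, Urea+NBPT. Plants 5 days old had been kept for 8 h in a nutrient solution whose nitrogen source was 0.5 mM urea, to which 0.897 μM of NBPT, a urease inhibitor, was added. Each replicate was a pool of the roots of 6 plants from a separate experiment. Roots given urea alone were not analysed here, so the values describe treated roots and their spread, and no effect of the inhibitor can be read from them. In pooled roots, fewer cells of a type and less RNA per cell cannot be told apart.

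Urease is a nickel enzyme that splits urea into ammonia and carbon dioxide. In plants it is encoded as one long polypeptide and becomes active only after accessory proteins have loaded nickel into its active site. It releases nitrogen from urea taken up by the root and from urea formed when arginine is broken down, and the ammonium is then assimilated, mainly by glutamine synthetase. NBPT acts on the enzyme itself, which an array of transcripts does not measure.

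The probe letters were not used here, and whether a probe also matches other isoforms or genes was not tested. The primers that the study lists for RT-PCR of the short and the complete isoform are shown instead. Whether they tell the isoforms apart was not tested. They are written 5′ to 3′, in lower case throughout.
T03 forward: ttgggcaggagacaagttct
T03 reverse: tgcttccataggaaatctgga
T01 forward: atgctgatggtttgtcacca
T01 reverse: gcaatatgtcctcagcagca
The T03 primers hold 20 and 21 bases, of which 10 and 9 are G or C. Both T01 primers hold 20 bases, of which 9 and 10 are G or C. They are not the array probes, and no RT-PCR value is used here.

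As a measure of background, the array carries 1663 random control probes. Their median intensity was 73.3, 69.6 and 70.4 in replicates 1, 2 and 3, and their 95th percentile was 285.0, 298.6 and 285.2. Intensities are on the linear scale as deposited. A probe was called above background when its normalized log2 value exceeded the 95th percentile of the controls in all 3 arrays. Of the 8 urease probes 5 did so, beside 57.5% of all transcript probes. Probes bind with different strength, so intensities were compared between replicates of one probe and with the controls, not between probes.

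The complete isoform T01 was above background through both of its probes. The probe at position 1817 of the transcript had intensities of 4664, 6898 and 4178 in replicates 1, 2 and 3. All of these exceeded every random control of the same array. The probe at position 3043 had 484.4, 529.9 and 304.1, and lay above 98.5%, 98.6% and 95.5% of the controls. In both probes replicate 2 was the highest and replicate 3 the lowest. The second probe was close to the limit in replicate 3, where 74 random controls were at least as bright.

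T02 was likewise above background through both probes. Its probe at position 55 had 454.4, 649.8 and 345.4 in replicates 1, 2 and 3, above 98.1%, 99.3% and 97.0% of the random controls. Its probe at position 941 had 1900, 4789 and 1924. Here replicates 1 and 3 were nearly equal and replicate 2 was 2.50 times their mean. The probe at position 55 showed less of this, with replicate 2 at 1.62 times the mean of the others.

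The probes of T04 gave unlike results. The probe at position 493 had 1386, 1739 and 1499 in replicates 1, 2 and 3, and only 3, 3 and 4 of the 1663 random controls were as bright. It was the steadiest urease probe, with an SD of 0.16 on the log2 scale (n = 3). The probe at position 850 had 99.3, 244.8 and 118.6, and lay above 69.7%, 93.1% and 78.8% of the controls. It therefore passed the limit in no array, and the signal of T04 above background rests on a single probe.

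The probes of the short isoform T03 exceeded the 95th percentile of the random controls in replicate 2 only. Its probe at position 510 had 110.5, 528.7 and 84.8 in replicates 1, 2 and 3, above 74.4%, 98.6% and 63.2% of the random controls. Its probe at position 568 had 238.0, 969.6 and 175.4, above 92.8%, 99.6% and 87.8% of them. In replicates 1 and 3 both probes were below the 95th percentile, with between 120 and 612 controls at least as bright. In replicate 2 both were above it, with 23 and 6 controls at least as bright at positions 510 and 568. The probe at position 510 stayed below the 99th percentile of the controls there, which was 580.1. Since replicates 1 and 3 give no level above background, only a bound that depends on the limit can be given. With values under the 95th percentile of the controls set to it, replicate 2 was at least 1.81-fold higher than the others at position 510. At position 568 it was at least 3.27-fold higher. By the 99th percentile no excess can be given at position 510, and that at position 568 would be smaller. The T03 probes stand 58 positions apart, and 9.59% of all transcripts with 2 probes have them closer. The median over such transcripts is 605. Nothing in the files or methods states the probe length, so it cannot be told whether the T03 probes overlap and how far they count as separate readings.

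**Figure D1:**
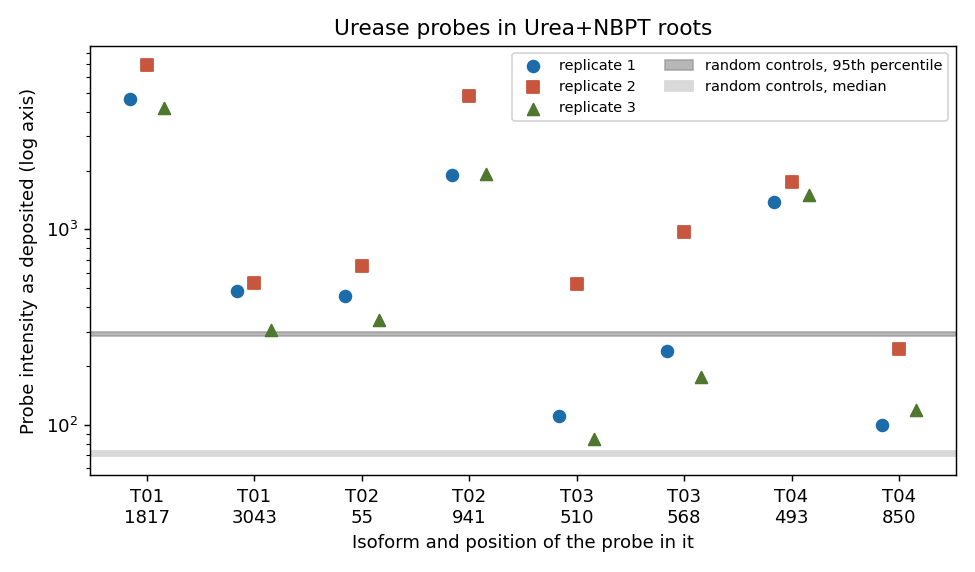
Intensity of each urease probe as deposited (vertical log axis) in replicates 1, 2 and 3 of Urea+NBPT roots, by isoform and position of the probe in it, with bands for the median and the 95th percentile of the 1663 random controls over the arrays. The T03 probes exceed the upper band in replicate 2 only, and the T04 probe at position 850 in no replicate.

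Summarized per isoform, the levels are normalized log2 intensities, and detection again means above the 95th percentile of the random controls in all 3 arrays, a limit of 8.24 for replicates 1 and 3 and of 8.30 for replicate 2. Of the 4 isoforms 3 were detected, beside 62.6% of all transcripts. T01 had 10.58, 10.93 and 10.18 in replicates 1, 2 and 3, with a mean of 10.56 ± 0.37 (SD, n = 3). T02 had 9.89, 10.81 and 9.71, with a mean of 10.14 ± 0.59 (SD, n = 3). Both were far above the limit in every array.

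T04 had 8.66, 9.41 and 8.82 in replicates 1, 2 and 3, with a mean of 8.96 ± 0.39 (SD, n = 3). It was called detected although its probe at position 850 was not above background, because an isoform level from 2 probes is their mean. T03 had 7.49, 9.52 and 7.13, with a mean of 8.05 ± 1.29 (SD, n = 3), and exceeded the limit in 1 of 3 arrays. The SD of T03 joins a level above the limit with others below it, and is given as a description only. The SDs of the other isoforms were exceeded by 13.1% (T01), 3.67% (T02) and 11.5% (T04) of all transcripts, whose median SD was 0.17.

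**Figure D2:**
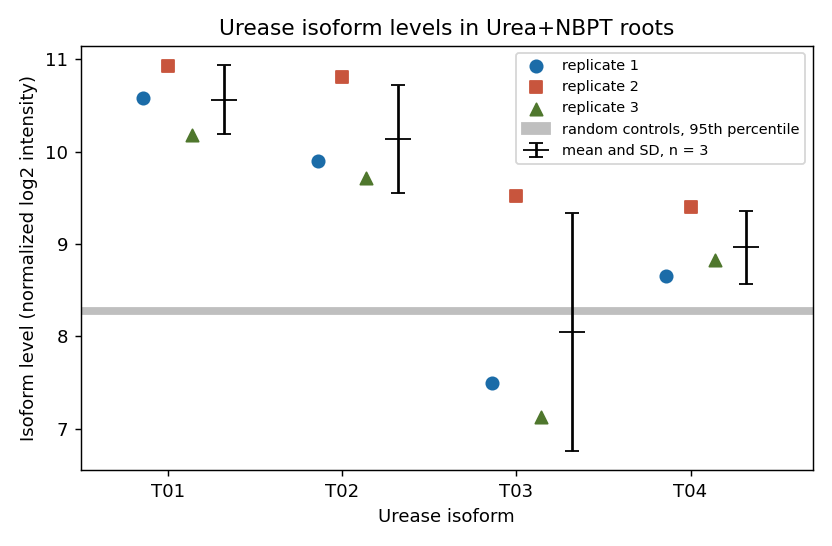
Level of each urease isoform (normalized log2 intensity) in the 3 replicates of Urea+NBPT roots, with the mean and SD (n = 3) and a band for the 95th percentile of the random controls. T01, T02 and T04 lie above the band in all replicates and T03 only in replicate 2, at 9.52.

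With the 99th percentile of the random controls as the limit, 2 isoforms remained above it in all arrays, T01 and T02, beside 47.4% of all transcripts. Of the probes 3 remained, those of T01 at position 1817, T02 at position 941 and T04 at position 493, beside 45.1% of all probes. Each of the detected isoforms thus had a single probe past the stricter limit. The T03 probe at position 568 passed it in replicate 2 only, and the T03 probe at position 510 passed it in no array.

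Replicate 2 was the brightest array for all 8 urease probes and all 4 isoforms. Over all features of the array it was the highest in 35.1% of probes and 35.4% of transcripts. Among the 1232 genes with 4 transcripts on the array, replicate 2 was the highest in all 4 for 93 of them, or 7.55%. The isoforms were measured on the same RNA, so they are not separate observations of that replicate. No test was made of this order.

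How far replicate 2 exceeded the mean of replicates 1 and 3 could be measured for the detected isoforms and bounded for T03. The excess on the log2 scale was 1.003 for T02, 0.66 for T04 and 0.54 for T01. For T03 the measured difference was 2.21, but replicates 1 and 3 lay below the limit. With all values below the 95th percentile limit set to it, the excess of T03 was at least 1.28, or at least 2.43-fold. That bound holds for this limit only: by the 99th percentile it would be smaller, and it was not computed. T03 and T02 exceeded 1, the value of a 2-fold difference, as measured and with values set to the 95th percentile. Of all transcripts 2.26% and 1.55% did so, and T02 lay just past 1. The value of T04 includes its probe at position 850, which was at background. Replicates 1 and 3 exceeded the mean of the others by this much in 0.228% and 0.452% of all transcripts and in no urease isoform.

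Taken by probe, 4 of 8 exceeded 1 as measured, beside 3.34% of all transcript probes and 0.962% of the random controls. With values below the limit set to it, 2 of 8 did so, beside 2% of all transcript probes. These were the T03 probe at position 568, with at least 1.71, and the T02 probe at position 941, with 1.32. The T03 probe at position 510 had at least 0.85, and the T04 probe at position 850 was below the limit in every array, so that no excess can be given for it. Both T03 probes were thus above the limit in replicate 2 only, whereas the T04 probe at position 493, with an excess of 0.27, was nearly even. Of the 918 transcripts with 2 probes and a measured excess above 1, both probes exceeded 1 in 435, or 47.4%, which is 1.08% of all 40256 transcripts with 2 probes.

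**Figure D3:**
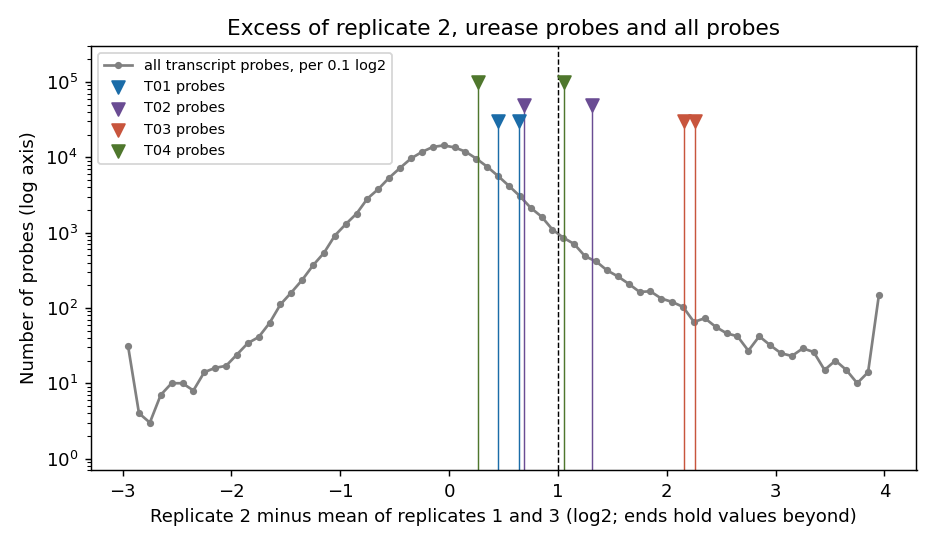
Number of transcript probes (vertical log axis) by the log2 difference of replicate 2 from the mean of replicates 1 and 3, for all 139000 probes, with the 8 urease probes as markers whose height carries no value and a dashed line at 1. The T03 probes lie at 2.16 and 2.26 as measured, with replicates 1 and 3 at background, and the T01 probes at 0.45 and 0.64.

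Between the isoforms on the same array, only a change of their difference from array to array can be read, since its size depends on the probes. In log2 units, replicates 1, 2 and 3 gave -0.69, -0.12 and -0.47 for T02 minus T01. For T04 minus T01 these arrays gave -1.92, -1.52 and -1.36. T03 minus T01 was -1.41 in replicate 2, and no such difference can be given for replicates 1 and 3, where T03 was not above background. With values set to the limit, the excess of T03 in replicate 2 was 0.74 larger than that of T01, as a lower bound. This was also the range over the 4 isoforms, and 17.9% of the genes with 4 transcripts had a wider one, with a median of 0.43.

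The place of each urease probe on the array was described through the spots around it. Whether that place had a part in the excess of a probe was not tested. For each probe the surrounding transcript probes, 174 to 218 within 10 columns and 10 rows, were taken as a reading of that place on the array. As measured, the T03 probes had 2.26 and 2.16, against medians of 0.08 and -0.18 in their surroundings. The T02 probe at position 941 had 1.32, against -0.05 around it. The highest median around any urease probe was 0.23, at the T01 probe at position 3043, whose own excess was 0.45. The bounds of 0.85 and 1.71 for the T03 probes also lay above these medians, for which values were not set to the limit. Of the surrounding probes of T03, 6 of 215 and 6 of 218 had an excess above 1.

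**Figure D4:**
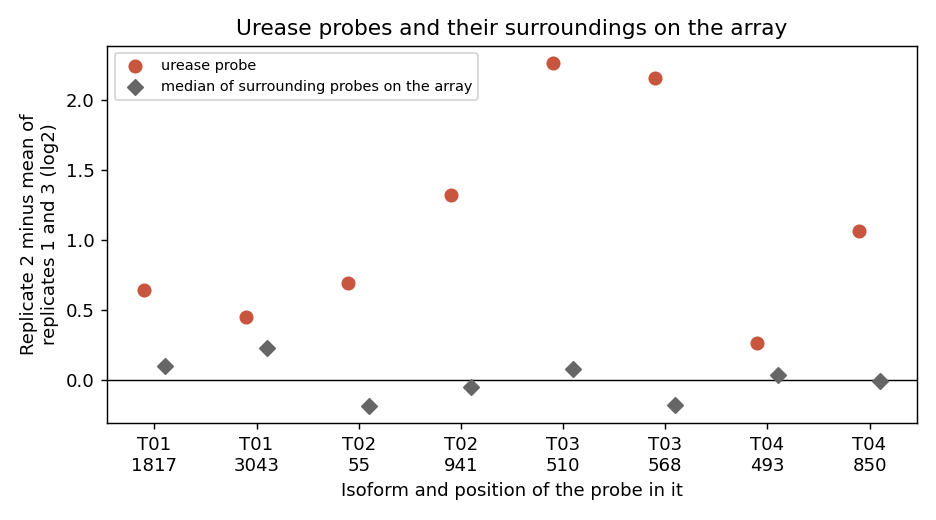
Log2 difference of replicate 2 from the mean of replicates 1 and 3 for each urease probe (circles) and the median of the transcript probes around it on the array (diamonds). As measured, the T03 probes stand at 2.26 and 2.16 with surroundings at 0.08 and -0.18, and all surroundings lie between -0.19 and 0.23.

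The transcripts nearest to T03 in their measured profile are named for reference, although T03 was at background in replicates 1 and 3. Likeness was measured as the Euclidean distance between log2 values centred on their mean over the 3 arrays, among transcripts above the 95th percentile of the controls in at least 1 array and with a gene name in the reference table, and 3 arrays carry little information on likeness. The nearest was GRMZM2G553532_T01 of Tie-dyed2, a callose synthase gene known from maize leaves, with 10.83, 13.00 and 10.63 in replicates 1, 2 and 3 and a distance of 0.13. GRMZM2G314546_T02 of homeobox3, a homeobox gene, had 10.84, 12.90 and 10.68 (distance 0.15). GRMZM2G159399_T02, listed as ARF17, a name used for auxin response factors, had 8.26, 10.06 and 7.81 (distance 0.16). Tie-dyed2 and homeobox3 were above background in 3 of 3 arrays, ARF17 in 2 and T03 in 1. With values below the limit set to it, the distances to T03 were 0.82 for Tie-dyed2, 0.71 for homeobox3 and 0.43 for ARF17.

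Of the genes on either side of urease in urea use, the reference table names several of ammonium assimilation, while gdh2 and AsnS4 of that group were not matched. No gene was matched by name for urea transport (DUR3), the urease accessory proteins, arginase or allantoinase. The matched list held 28 transcripts of 11 genes, of which 23 were detected, beside 62.6% of all transcripts. Glutamine synthetase, which joins ammonium to glutamate, was detected in 16 of 18 transcripts. Asparagine synthetase, which passes the nitrogen on to asparagine, was detected in 3 of 5. Glutamate dehydrogenase, which interconverts glutamate and 2-oxoglutarate, was detected in 2 of 3, and ferredoxin-dependent glutamate synthase, which makes glutamate from glutamine, in 2 of 2. Replicate 2 was the highest in 12 of the 28, beside 35.4% of all transcripts, and exceeded the mean of the others by more than 1 in 1 of them, beside 2.26% of all transcripts. The median excess of the list was 0.004, and over all transcripts it was -0.03.

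That transcript was GRMZM2G046601_T01 of the glutamine synthetase GS1-5, with 11.64, 12.70 and 11.60 in replicates 1, 2 and 3 and an excess of 1.08. The other 3 transcripts of GS1-5 also had their highest level in replicate 2, with an excess between 0.32 and 0.50. In the glutamine synthetase gs1-2 replicate 2 was the lowest in all 4 transcripts, with a difference between -0.63 and -0.37 from the mean of the others.

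On the tissue lists, all 5 transcripts of the root list, from rth3, rtcs and ys1, were detected, beside 62.6% of all transcripts. Of the leaf list, both transcripts of the small Rubisco subunit ssu1 were above background in no array. All 5 transcripts of pep1, Ppdk1 and me3, whose products work in C4 photosynthesis, were detected. With 5 of 7 leaf transcripts detected, these lists do not tell root from leaf. Other genes on the tissue lists were not matched to the array by name. The 3 arrays had the same median intensity, 550, and their sorted intensities differed by at most 0.183% at any rank. With 3 arrays, the precision of every level given here is limited.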

How the data were processed

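The 3 arrays of Urea+NBPT roots were hybridized with Cy3-labelled cDNA, scanned, and read with NimbleScan by the authors, who deposited 1 intensity per probe on the linear scale. The labels name RMA, without a version. Their sorted values are nearly identical between arrays, so a quantile step seems to precede deposition, and the series value table differed from the array files in 0 probes. Here, normexp with an offset of 50 and quantile normalization were applied (limma 3.58.1 in R 4.3.3), and median polish of the log2 probe values gave 1 level per transcript and array. Further steps used Python 3.11.15 and pandas 2.3.3. Median polish was checked on simulated data with known differences.

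All arrays form a single group, so no comparison between conditions and no test was made. Replicates are separate experiments, and the number of arrays limits precision. The named transcripts are all isoforms and probes of GRMZM2G461569 and the 3 named genes nearest to the isoform of largest range. The gene, the lists and the limit of 1 on the log2 scale were chosen with earlier results of these data known. GS1-5 and gs1-2 were singled out after their values were seen. Lists were matched by symbol through the reference table (Zm-B73-REFERENCE-NAM-5.0), used for names only. The alternatives tried were a stricter limit, 2 of 3 arrays, no background correction or an offset of 0, median scaling, the mean of probes, the value table, omission of each replicate and, chosen after seeing the data, removal of a trend over the array surface and the setting of values below the 95th percentile of the random controls to it.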

Additional observations from a re-analysis of the deposited data

How the results depend on the processing

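Of 98 recomputed values 95 stayed within the spread between replicates or within 1.5 times the count. This share is no measure of robustness, since some alternatives could change little or nothing. The value table equals the array files, median scaling met arrays of equal median, and each urease isoform has 2 probes, whose mean equals their median polish. The spread also includes replicate 2, so the fall of the T03 excess from 2.21 to a bound of 1.28 counted as within it. With the 99th percentile of the random controls as the limit, 3 urease probes in place of 5 were above background. When replicates were left out in turn, the number of isoforms with replicate 2 more than 1 above the others lay between 1 and 2, and it was 1 without replicate 3, as T02 no longer passed. The number of probes that did so lay between 3 and 4. The level of T03 was 7.31 without replicate 2 and up to 8.51 without replicate 3, and its measured excess in replicate 2 was 2.71 with a normexp offset of 0 and 2.24 after removal of the surface trend. With values below the limit set to it, chosen after seeing the data, the excess was at least 1.28, and 2 probes in place of 4 had replicate 2 more than 1 above the others. This used the 95th percentile only, and a higher limit would give a smaller bound. The number of detected isoforms was 3 under all alternatives but the stricter limit, where it was 2. Without replicate 2 no excess of that replicate can be computed. The dim probes of T03 and T04 lie below the limit in some or all arrays, so exact folds cannot be read from them. No paired analysis was possible because there is a single group.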
